A study of Saccharomyces cerevisiae with 8 samples.

Results

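The 10 genes described here are VTS1 and the genes of 9 subunits of the Ccr4-Not complex (CCR4, POP2, CDC39, CDC36, NOT3, MOT2, NOT5, CAF40 and CAF130), chosen by their systematic names from the 6713 targets of the deposited tables. Vts1 is the budding yeast member of the Smaug family, RNA-binding proteins whose SAM domain recognises short RNA hairpins with a CNGG loop. Ccr4-Not is the main cytoplasmic deadenylase: it shortens the poly(A) tail of mRNAs, which is followed by decapping and exonucleolytic decay, and Vts1 brings the complex to the mRNAs it binds. In yeast, commitment to meiosis and spore formation is accompanied by extensive turnover of mRNAs.

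Poly(A) RNA was sequenced in 8 libraries from BY4743, a diploid laboratory strain of Saccharomyces cerevisiae labelled wild-type throughout. By the growth protocol each culture was divided between the media, so preSPO and SPO libraries may share cultures. In 4 libraries the cells carried the natural [SMAUG+] prion, a heritable form of the Vts1 protein (prion), and in the other 4 the prion had been removed by selective curing (cured). In each state, 2 libraries came from saturated cultures after 48 h in preSPO medium and 2 from cells kept for 14 h in SPO, the sporulation medium. By the sample labels, no library carries a deletion or an overexpressed copy of VTS1, although the design text of the series names both. VTS1 had at least 70 counts in every library. Whether replicates were separate cultures rests on the labels. The p-values set a difference against the spread between these libraries, estimated over all 4 groups with the libraries taken as independent.

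The estimated counts summed to between 4650288 and 71684771 per library. Both extremes belong to the cured SPO group, the lowest to replicate 1 and the highest to replicate 2. Strain markers and library composition bear on how the groups can be read. LEU2 and URA3, deleted in this strain, had at most 3 and 24 counts in any library, while HIS3, of which the strain lacks an internal part, was counted in all 8. MET17, deleted on 1 of the 2 homologues, separated the preSPO libraries by state, with 3207 and 3867 counts under the prion label and 0 and 1 under the cured label. Its SPO counts were 1363 and 1 under the prion label and 447 and 13 under the cured label, so prion SPO replicate 2 and cured SPO replicate 1 go against their labels by this gene. Calls and counts between media that change when both are left out are given beside the results. Prion preSPO replicate 2 stood apart as well: for 9 of the 10 genes its level lay outside the range of the other 3 preSPO libraries, each time towards the SPO mean. Of the 6346 genes tested 63.9% lay outside that range and 49.5% did so towards the SPO mean. TAR1, which lies within the ribosomal DNA repeat, took 3.18% to 8.22% of counts in preSPO libraries, with the highest share in prion preSPO replicate 2, and 10.6% to 14.8% in SPO libraries. The part of this difference in composition in the results below was not tested.

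All 10 genes have a single coding exon, and none overlaps another annotated gene. VTS1 lies on chromosome XV (1011189 to 1012760, plus strand, R64), CCR4 on chromosome I (110846 to 113359, minus strand) and POP2 on chromosome XIV (719346 to 720647, minus strand). These coding sequences are rich in codons for glutamine or asparagine. Glutamine is common in prion-forming and aggregating yeast proteins. Glutamine codons alone made up 8.22% of VTS1, 7.29% of CCR4 and 14.5% of POP2. In the other genes they made up between 2.76% (CAF130) and 6.17% (CDC39). Percentiles were computed only for glutamine and asparagine codons counted as a sum. Glutamine and asparagine codons made up 18.2% of VTS1, 16.1% of CCR4 and 21.9% of POP2, against a median of 9.43% over 6009 coding sequences, which placed them at percentiles 98.3, 96.6 and 99.4. The other 7 genes had between 7.85% (CDC36, percentile 26.2) and 13.9% (CAF40, percentile 91.3). MOT2 stood at percentile 90.1, CDC39 at 82.0, NOT3 at 76.4, NOT5 at 74.0 and CAF130 at 54.0. A run of 10 or more glutamine codons was present in VTS1, CCR4 and POP2 but in 0.849% of all coding sequences. The 4 runs are shown because they are the sequence feature that the RNA-binding protein shares with both nucleases of the complex. They are given on the coding strand, 5′ to 3′, with the uninterrupted run in capitals and the 3 codons on either side in lower case.
VTS1, 12 codons, chrXV:1011447-1011500, plus strand: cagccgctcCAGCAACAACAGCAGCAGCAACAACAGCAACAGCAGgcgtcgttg
CCR4, 10 codons, chrI:113279-113326, minus strand: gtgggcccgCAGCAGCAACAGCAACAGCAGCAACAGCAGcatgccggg
POP2, 11 codons, chrXIV:720366-720416, minus strand: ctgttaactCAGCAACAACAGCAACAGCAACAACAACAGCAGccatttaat
POP2, 15 codons, chrXIV:720261-720323, minus strand: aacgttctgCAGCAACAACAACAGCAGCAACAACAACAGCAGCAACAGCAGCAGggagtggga

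Hairpins of the kind Vts1 binds were searched on the coding strand as a CNGG or CNGGN loop closed by a stem of 5 base pairs, with G-U pairs allowed. Of the 10 genes, 2 held such letters in their coding sequence, against 18.5% of all 6009 coding sequences and 23.1% of those from 1200 to 3500 bases long. Both loops start with the same letters and differ in length, so their sites can overlap. With YIR016W, an mRNA known to be bound by Vts1, they are shown as the letters a Vts1 site would have, with the CNGG in capitals. A match describes the sequence and does not show binding, and untranslated regions were not searched.
POP2, chrXIV:720573-720586, minus strand: agaggCAGGcttct
CAF130, chrVII:760394-760408, plus strand: gttttCCGGagaagc
YIR016W, chrIX:382843-382856, plus strand: tggcgCAGGcgcca

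The level of each transcript per length was read from the deposited TPM values, which are scaled to sum to 1000000 in each library. NOT5 and CDC36 stood highest among the 10 genes in preSPO medium, at 122 ± 43.8 and 104 ± 44.0 TPM (SD, n = 2) in prion and 122 ± 11.1 and 126 ± 1.09 TPM in cured libraries. By TPM the order of these 2 differed between libraries. By counts per kilobase of coding length NOT5 was above CDC36 in every preSPO library, and 6 ranks of the 10 genes within libraries differed between these measures. MOT2, which encodes the E3 ubiquitin ligase of the complex (Not4), followed with 40.0 to 79.4 TPM and NOT3 with 34.6 to 51.2 TPM over the 4 preSPO libraries. CAF40 (22.3 to 31.2 TPM), POP2 (12.8 to 27.95 TPM), VTS1 (9.29 to 24.2 TPM), CDC39 (11.2 to 14.3 TPM) and CAF130 (7.43 to 16.0 TPM) had ranges that overlapped those of their neighbours in this order. CCR4, one of the nuclease subunits, was lowest of the 10 in each of the 4 preSPO libraries, with 3.52 to 6.52 TPM. Its group means stood at percentiles 11.0 (prion) and 7.45 (cured) of all genes tested.

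In SPO medium the order was another. VTS1 was lowest of the 10 in every SPO library, with 3.41 and 2.85 TPM in prion and 3.77 and 1.75 TPM in cured replicates 1 and 2, and its group means stood at percentiles 6.54 (prion) and 6.16 (cured) of all genes, against 33.4 and 38.4 in preSPO medium. CDC36, which encodes a core NOT-module subunit (Not2), was highest in every SPO library, with 42.8 to 61.4 TPM. NOT5, at 21.6 to 32.5 TPM, and MOT2, at 22.3 to 29.1 TPM, were not separated. CCR4 ranked 8 or 9 of 10, with group means at percentiles 20.1 (prion) and 21.8 (cured). By TPM, 6 of the 10 genes were lower in all 4 SPO libraries than in all 4 preSPO libraries, against 52.9% of all genes, and 0 were higher, against 9.57%. These 6 were VTS1, CDC36, NOT3, MOT2, NOT5 and CAF40.

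**Figure D1:**
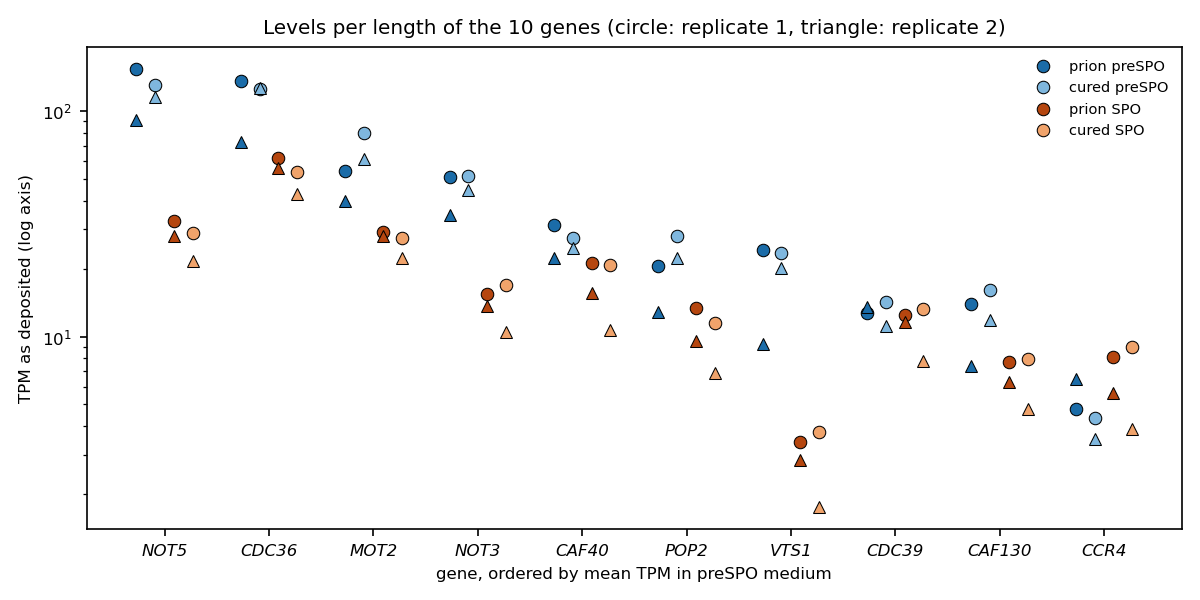
TPM as deposited (log axis) of the 10 genes in each of the 8 libraries, ordered by mean level in preSPO medium, with a point per library and colours for the 4 groups. NOT5 and CDC36 lead in preSPO medium, CCR4 is lowest there, and VTS1 is lowest in SPO medium, at 1.75 to 3.77 TPM.

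The comparison of media asked how the deadenylase genes and VTS1 differ between saturated culture and sporulation medium. Levels were compared as CPM, counts per 1000000 on TMM-scaled library sizes. Differences were tested with edgeR quasi-likelihood tests on all 8 libraries, and a gene was called where its p, adjusted by Benjamini-Hochberg over 6346 genes, was under 0.05. VTS1, NOT3 and NOT5 fell in both states, while CCR4 rose in both. In prion libraries 1 of the 10 rose and 3 fell, against 26.2% of all genes that rose and 27.1% that fell (53.3% in either direction). In cured libraries 2 rose and 5 fell, against 28.6% of all genes in each direction (57.2% in either). Without both SPO libraries that go against their labels 1 rose and 3 fell in either state. The share of higher genes among all calls, 49.1% in prion and 50.0% in cured libraries, was 38.9% and 30.2% with library sizes alone and 21.6% and 13.7% on log2(TPM + 1). The median log2 fold change of the 10 was -0.019 in prion and -0.45 in cured libraries, beside 0.0042 and 0.032 over all genes tested. In such bulk samples, fewer cells with a transcript and less of it per cell cannot be told apart.

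**Figure D2:**
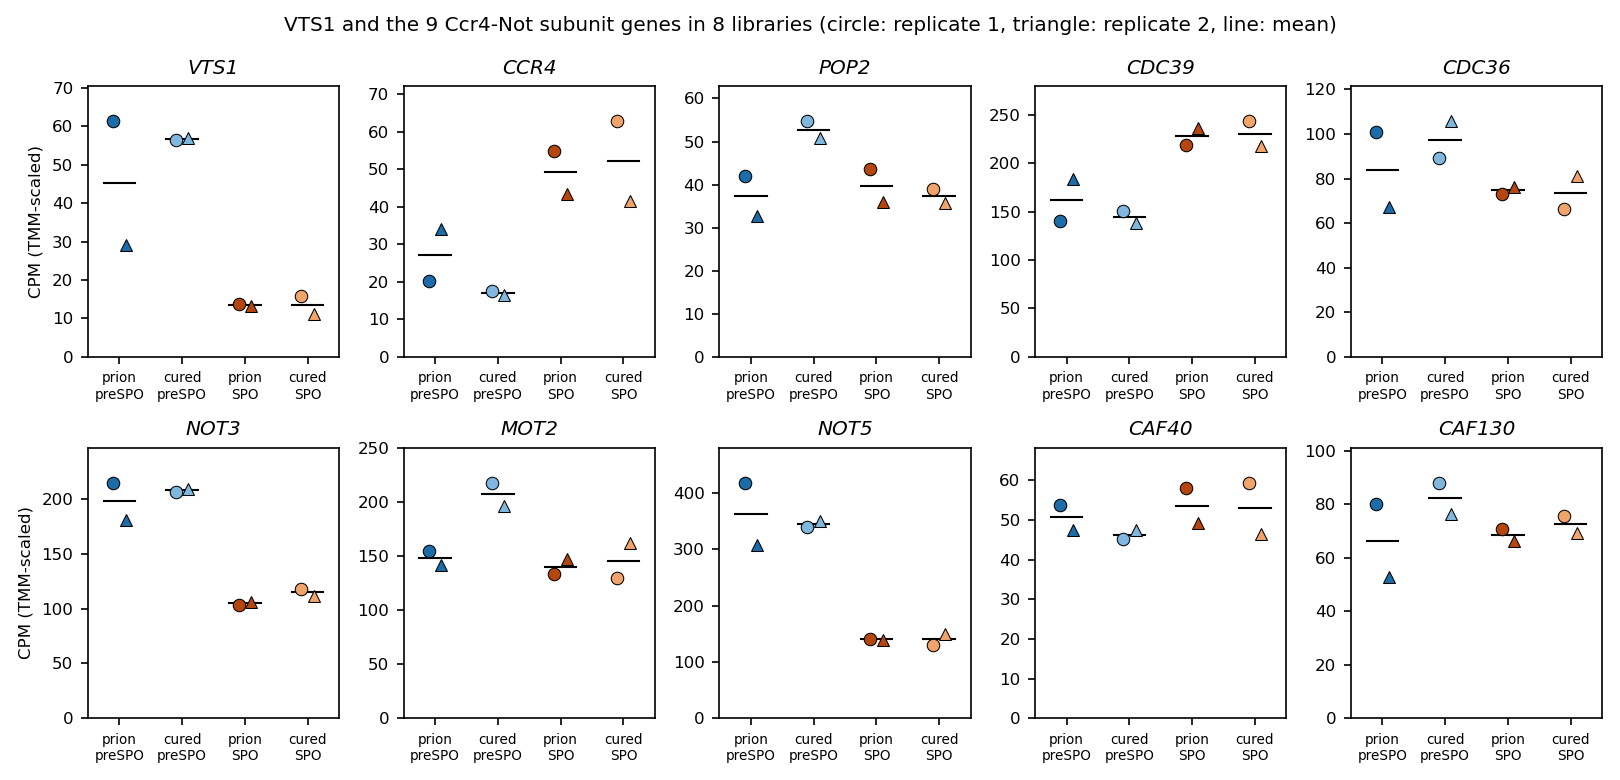
TMM-scaled CPM of each of the 10 genes (linear axes from 0) in the 4 groups, with 1 point per library and a line at the mean of 2. For VTS1, NOT3 and NOT5 the SPO points lie below all preSPO points, and for CCR4 and CDC39 above them.

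VTS1 (YOR359W) stood in preSPO medium at 61.3 and 29.1 CPM with the prion (replicates 1 and 2) and at 56.5 and 56.8 CPM after curing. In SPO medium it stood at 13.8 and 13.2 CPM with the prion and at 15.9 and 11.2 CPM after curing. All 4 SPO libraries were below all 4 preSPO libraries, as for 29.4% of all genes. The log2 fold change from preSPO to SPO medium was -1.74 in prion libraries (95% interval -2.49 to -0.98, edgeR adjusted p = 0.00255), or 3.34-fold lower. It was -2.11 in cured libraries (-2.88 to -1.34, edgeR adjusted p = 0.000959), or 4.32-fold lower. The prion value rests in part on prion preSPO replicate 2: it was -2.18 without that library and -1.11 without replicate 1, and was called either way. Without both SPO libraries that go against their labels the values were -1.72 and -2.34, both called.

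NOT5 and NOT3 encode related subunits of the NOT module, and Not5 also binds the ribosome. NOT5 (YPR072W) had 417.9 and 308.1 CPM with the prion (replicates 1 and 2) and 339.6 and 349.9 CPM after curing in preSPO medium, then 141.4 and 139.8 CPM with the prion and 130.8 and 149.0 CPM after curing in SPO medium. The SPO libraries lay far below the preSPO libraries, with little spread among them. Its log2 fold change was -1.37 in prion (SE 0.199, edgeR adjusted p = 0.000610) and -1.30 in cured libraries (SE 0.199, edgeR adjusted p = 0.000753), or 2.58-fold and 2.46-fold lower. NOT3 (YIL038C) had 214.5 and 180.7 CPM with the prion (replicates 1 and 2) and 206.0 and 209.2 CPM after curing in preSPO medium, then 103.5 and 106.0 CPM with the prion and 117.9 and 111.7 CPM after curing in SPO medium. It too was lower in every SPO library than in any preSPO library. Its log2 fold change was -0.92 (SE 0.165, edgeR adjusted p = 0.00188) in prion and -0.86 (SE 0.165, edgeR adjusted p = 0.00239) in cured libraries. VTS1, NOT3 and NOT5 kept their calls in both states under all 17 alternative fits.

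CCR4 and POP2 encode the nucleases of the complex. CCR4 (YAL021C) had 20.1 and 34.0 CPM with the prion (replicates 1 and 2) and 17.6 and 16.6 CPM after curing in preSPO medium, then 54.8 and 43.5 CPM with the prion and 62.8 and 41.4 CPM after curing in SPO medium. Every SPO library was above every preSPO library, as for 29.3% of all genes. In prion libraries CCR4 rose by 0.85 on the log2 scale (95% interval 0.20 to 1.50, edgeR adjusted p = 0.0328), or 1.81-fold, and by 1.59 in cured libraries (0.92 to 2.26, edgeR adjusted p = 0.00194), or 3.02-fold. The prion call was kept in 12 of 17 alternatives. It was lost without prion preSPO replicate 1 (log2 0.53), prion SPO replicate 1 (0.69) or prion SPO replicate 2 (1.00), and with library sizes alone (0.69). Without prion preSPO replicate 2 the value was 1.29. Without both SPO libraries that go against their labels CCR4 had 1.00 in prion and 1.28 in cured libraries, both called. On log2(TPM + 1), where the median of all genes moved by -0.56 in prion and -0.89 in cured libraries, CCR4 had 0.24 and 0.50 and was called in neither state, which is 0.80 and 1.39 above that median.

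POP2 (YNR052C) had another pattern than CCR4. It stood at 42.0 and 32.6 CPM with the prion (replicates 1 and 2) and 54.7 and 50.9 CPM after curing in preSPO medium, then 43.6 and 35.9 CPM with the prion and 39.0 and 35.8 CPM after curing in SPO medium. Cured preSPO was the highest group, and the other 3 groups overlapped. POP2 fell by 0.50 on the log2 scale in cured libraries (SE 0.184, edgeR adjusted p = 0.0437), and its value in prion libraries was 0.094 (SE 0.184, edgeR adjusted p = 0.688). The difference between the states in this response, the interaction, was -0.59 (95% interval -1.19 to -0.0023, edgeR adjusted p = 0.398), so the response was not shown to differ between them. The cured call is a weak one: without both SPO libraries that go against their labels the log2 fold change was -0.56 and not called, and it was called in 2 of 8 fits that left out 1 library, those that left out either prion preSPO library.

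CDC39 (YCR093W) encodes Not1, the large scaffold on which the other subunits assemble. It had 140.1 and 184.0 CPM with the prion (replicates 1 and 2) and 150.8 and 138.0 CPM after curing in preSPO medium, then 219.2 and 236.0 CPM with the prion and 243.1 and 217.5 CPM after curing in SPO medium, with no overlap between the media. It rose by 0.67 on the log2 scale in cured libraries (SE 0.190, edgeR adjusted p = 0.0147). In prion libraries its log2 fold change was 0.49 (SE 0.189, edgeR adjusted p = 0.0549), which was not called. It was called in 4 of 17 alternatives: with the replicate number (0.49) or the culture (0.50) as a replicate block, with DESeq2, and without prion preSPO replicate 2 (0.70). The direction depends on the scaling: on log2(TPM + 1) CDC39 had -0.11 in prion and -0.29 in cured libraries, still 0.45 and 0.60 above the median of all genes. In cured libraries the call did not hold when replicate 1 (0.73) or 2 (0.61) of preSPO or replicate 1 of SPO (0.59) was left out, and without both SPO libraries that go against their labels (0.59).

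MOT2 (YER068W) fell by 0.50 on the log2 scale in cured libraries (SE 0.179, edgeR adjusted p = 0.0384) and had -0.085 in prion libraries (SE 0.179, edgeR adjusted p = 0.707). It stood at 155.3 and 142.4 CPM with the prion (replicates 1 and 2) and 218.2 and 196.9 CPM after curing in preSPO medium, then 133.3 and 147.2 CPM with the prion and 130.2 and 162.1 CPM after curing in SPO medium. As for POP2, cured preSPO was the highest group. The MOT2 call was kept in 3 of 8 fits that left out 1 library, those without prion preSPO replicate 1, prion preSPO replicate 2 or cured SPO replicate 2. It was lost without both SPO libraries that go against their labels (-0.36). CDC36 (YDL165W), CAF40 (YNL288W), an accessory subunit that binds the scaffold, and CAF130 (YGR134W), a subunit found in yeasts, were called in neither state. Their log2 fold changes were -0.17, 0.079 and 0.047 in prion and -0.40, 0.18 and -0.18 in cured libraries, and their CPM ranges in the 2 media overlapped. These calls depend on the scaling: on log2(TPM + 1) CDC36 was called lower in prion (-0.75) and cured libraries (-1.37) and CAF130 in cured libraries (-1.05), and with library sizes alone CDC36 was called in cured libraries (-0.81).

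**Figure D3:**
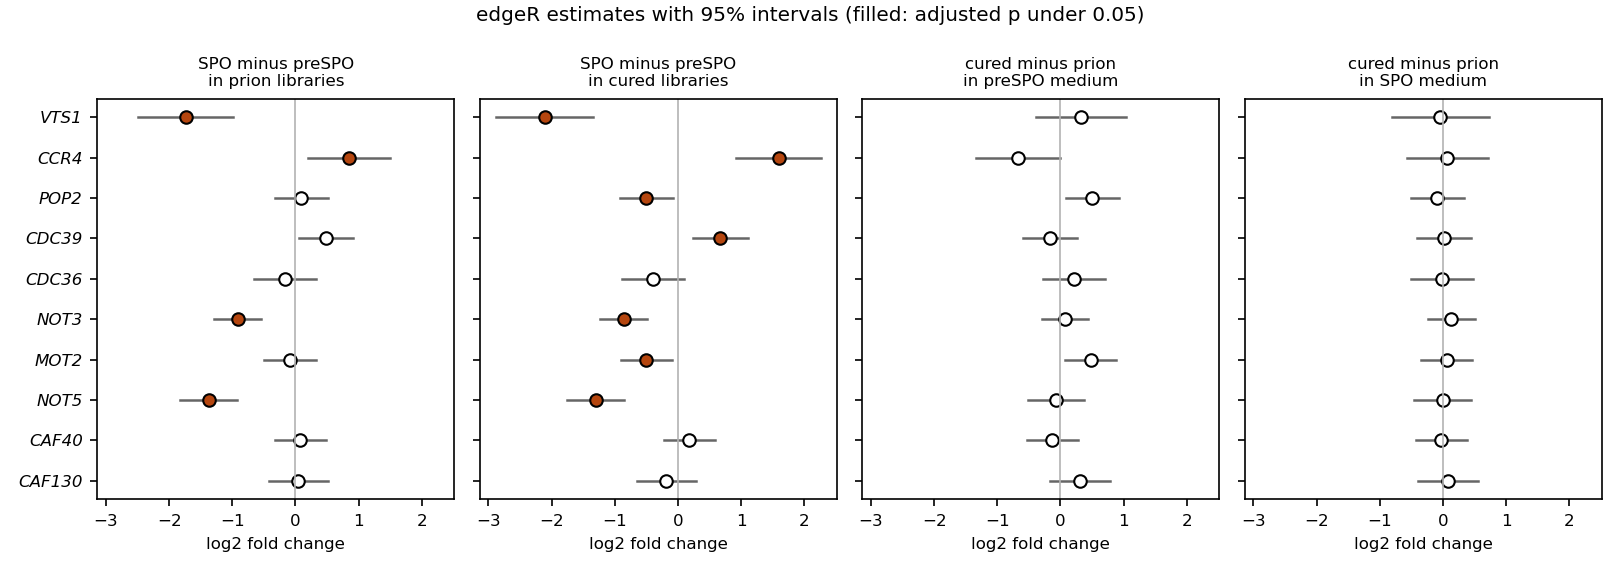
log2 fold changes of the 10 genes with 95% intervals from the edgeR fit, 1 panel per comparison, with filled points for an adjusted p under 0.05. VTS1, NOT3 and NOT5 lie below 0 and CCR4 above 0 between media in both states, and no point is filled in either comparison of states.

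Ratios of TPM within a library are free of the scaling between libraries, and they were described with no test. VTS1 over CDC39 was 1.91, 0.691, 1.64 and 1.80 in the preSPO libraries (prion replicates 1 and 2, then cured) and 0.274, 0.245, 0.285 and 0.226 in the SPO libraries in the same order. VTS1 over the median of the 9 subunits went from between 0.417 and 0.836 to between 0.168 and 0.224. The message of the RNA-binding protein was thus lower relative to CDC39 and to this median in every SPO library. Prion preSPO replicate 2 lay between the other preSPO and the SPO libraries. On log2(TPM + 1) CDC39 itself moved 0.45 (prion) and 0.60 (cured) above the median of all genes, so a gene at that median also falls relative to it. The share of all genes with such ratios was not counted.

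NOT5 over CDC39 ranged from 6.78 to 12.1 in preSPO and from 2.18 to 2.77 in SPO medium. NOT3 over CDC39 ranged from 2.58 to 4.01 and from 1.18 to 1.35, and MOT2 over CDC39 from 2.97 to 5.56 and from 2.06 to 2.86. CCR4 over POP2, the ratio of the nuclease messages, was 0.232, 0.507, 0.156 and 0.158 in the preSPO libraries and 0.610, 0.588, 0.782 and 0.562 in the SPO libraries, again prion replicates first. Every SPO library was above every preSPO library. CCR4 over CDC39 overlapped between media, since prion preSPO replicate 2 stood at 0.484 and prion SPO replicate 2 at 0.483. POP2, CDC36, CAF40 and CAF130 over CDC39 overlapped between media as well.

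**Figure D4:**
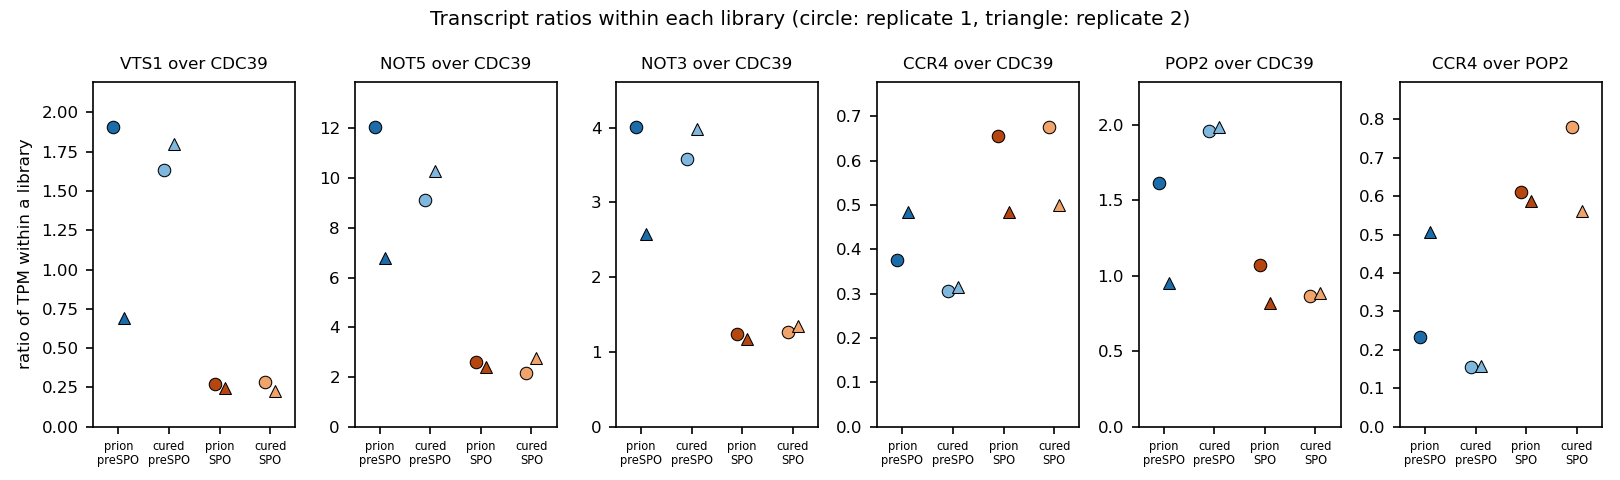
Ratios of TPM within each of the 8 libraries for VTS1, NOT5, NOT3, CCR4 and POP2 over CDC39 and for CCR4 over POP2 (linear axes from 0, a point per library). VTS1, NOT5 and NOT3 over CDC39 are lower in each SPO library than in any preSPO library, and CCR4 over POP2 is higher.

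The comparison of states asked whether loss of the prion goes with another level of VTS1 or of the deadenylase messages. The preSPO libraries of the labelled states also differed in MET17, with 3207 and 3867 counts in prion and 0 and 1 in cured libraries. Prion state and this difference cannot be told apart there. In preSPO medium 0 of the 10 genes were called by edgeR, against 0.93% of all genes (0.457% higher and 0.473% lower in cured libraries), and 0 were called under any of the 16 alternatives, DESeq2 included. At an unadjusted p under 0.05 edgeR had 3 of the 10 and 1264 of all 6346 genes. These 3 were CCR4, at -0.67 on the log2 scale for cured against prion (95% interval -1.34 to -0.0067), POP2 with 0.50 (0.084 to 0.92) and MOT2 with 0.48 (0.073 to 0.89). The edgeR adjusted p was 0.247, 0.189 and 0.197. With CAF40, at -0.13, they were the 4 genes whose prion and cured libraries did not overlap in CPM, as did those of 46.9% of all genes.

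VTS1 itself differed by 0.33 in preSPO medium (95% interval -0.38 to 1.05, edgeR adjusted p = 0.594), and prion libraries lay on both sides of cured ones. The difference rests on prion preSPO replicate 2, as it was -0.11 without that library and 0.96 without prion preSPO replicate 1. The other subunits had -0.17 (CDC39), 0.22 (CDC36), 0.072 (NOT3), -0.074 (NOT5) and 0.31 (CAF130). Without prion preSPO replicate 2, the values of CCR4, POP2 and MOT2 were -0.24, 0.33 and 0.42.

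In SPO medium the labelled states were close for all 10 genes, from -0.092 for POP2 (95% interval -0.51 to 0.33) to 0.13 for NOT3 (-0.24 to 0.50), and VTS1 had -0.043 (-0.81 to 0.73). By edgeR 0 of the 10 were called, against 0.0315% of all genes, with 0 of the 10 and 154 of all genes at an unadjusted p under 0.05, and 0 of the 10 by DESeq2. By CPM, NOT3 alone had libraries of the labelled states that did not overlap, as did 32.3% of all genes, while by TPM these were CDC36 and MOT2 and not NOT3. The states of both libraries that go against their labels could not be checked further, and these small differences rest on the labels. Without both VTS1 had -0.29 and POP2 -0.28. For the interaction 0 of the 10 were called by edgeR, against 0.0158% of all genes, with values from -0.59 (POP2) to 0.74 (CCR4, edgeR adjusted p = 0.489) and -0.37 for VTS1 (edgeR adjusted p = 0.779). At an unadjusted p under 0.05 there were 1 of the 10, POP2, and 791 of all genes, and DESeq2 called 0 of the 10.

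Other genes of mRNA decay were taken from 5 lists, whose counts are to be set beside the shares of all genes that rose (26.2% in prion and 28.6% in cured libraries) and fell (27.1% and 28.6%). The Ski complex helps the cytoplasmic exosome, which degrades mRNA from its tail end. Of 14 Ski and exosome genes, 0 rose and 11 fell in either state, with medians of -1.05 in prion and -1.13 in cured libraries on the log2 scale. Without both SPO libraries that go against their labels 7 fell in prion and 9 in cured libraries. RRP4, of the exosome cap, had log2 fold changes of -2.03 in prion and -1.83 in cured libraries, the exosome core gene RRP42 of -1.77 and -1.79, SKI8 of -1.72 and -1.83 and SKI7, which links Ski and exosome, of -1.38 and -1.56. All 8 values were called by edgeR, with 0.00154 as the largest adjusted p. RRP45, another core gene, had -1.33 in cured libraries (called) and -0.51 in prion libraries (not called). Its interaction of -0.82 was not called (edgeR adjusted p = 0.343). RRP4 went from 185.3, 85.7, 127.5 and 118.4 CPM in the preSPO libraries to 32.5, 33.6, 38.8 and 31.2 CPM in the SPO libraries, in the order prion replicates 1 and 2, then cured.

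Genes of decapping and of decay from the cap end went both ways. Of 18 such genes, prion libraries had 5 that rose and 5 that fell, and cured libraries 6 and 3 (medians -0.19 and 0.10). The counts of lower genes depend on single libraries and on the scaling. In prion libraries 1 fell without both SPO libraries that go against their labels, 0 without prion SPO replicate 2, 1 without prion SPO replicate 1, 2 without prion preSPO replicate 1 and 9 on log2(TPM + 1). In cured libraries 1 fell without both and without cured SPO replicate 2, and 12 fell on log2(TPM + 1), where 3 rose. With cured preSPO replicate 1 left out, or with library sizes alone, 3 rose in cured libraries. EDC2, an activator of decapping, rose by 1.82 and 1.94 on the log2 scale, DCS2, a stress-induced relative of the scavenger decapping enzyme, by 2.21 and 2.29 and LSM3, of the Lsm ring, by 2.02 and 2.01. DCP1, of the decapping enzyme, had -1.04 and -1.07 and was called lower in both, but the prion call was lost without prion SPO replicate 2 or without both doubtful libraries (-0.92 each, edgeR adjusted p = 0.0542 and 0.0642). In each pair the first value is for prion and the second for cured libraries.

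The next list held PAN2 and PAN3, of the other deadenylase, PAB1, which encodes the poly(A)-binding protein, PBP1 and PUB1. Of these 5 genes, 1 fell in prion libraries (PUB1, at -0.79). In cured libraries 1 rose (PAB1, by 0.67, but -0.32 on log2(TPM + 1)). Without both doubtful SPO libraries both counts were 0, with PUB1 at -0.75 (edgeR adjusted p = 0.0657) and PAB1 at 0.66 (edgeR adjusted p = 0.0817). PUB1 also lost its call without prion SPO replicate 2, and PAB1 without cured preSPO replicate 1 or with library sizes alone (0.28). On log2(TPM + 1), 4 of the 5 fell in cured libraries. Of 10 further RNA-binding proteins and translation repressors, prion libraries had 2 that rose and 4 that fell, and cured libraries 2 and 2. Without both doubtful SPO libraries these were 1 and 2 in either state. Without either single prion SPO library they were also 1 and 2 in prion libraries, and 0 fell in cured libraries without cured SPO replicate 2. TIS11 (Cth2), which targets mRNAs in iron deficiency, rose by 2.71 and 2.75 on the log2 scale in prion and cured libraries. CAF20, a translation repressor that binds the cap-binding protein, had -1.07 and -0.90, and CTH1, the relative of TIS11, had -0.68 and -0.46, all called lower. The CTH1 call was lost in prion libraries without either SPO library (-0.63 without replicate 1, -0.74 without replicate 2) and without both doubtful ones (-0.74). In cured libraries it was lost without both (-0.49), with median-of-ratios factors or DESeq2 (-0.46 each) and without any 1 of the cured or prion SPO libraries or of the cured preSPO libraries (-0.56 to -0.36). CAF20 lost its cured call without cured SPO replicate 2 (-0.71). PUF2, a Pumilio-family protein, had -1.37 in prion libraries (called) and -0.49 in cured libraries (not called). Its interaction of 0.88 was not called (edgeR adjusted p = 0.404), so the response was not shown to differ between the states. PUF2 had 41.0 and 41.1 CPM in prion SPO libraries. In cured SPO it had 70.8 CPM in replicate 1, which goes against its label, and 39.7 CPM in replicate 2. HEK2 (Khd1) rose by 0.54 in prion and 0.77 in cured libraries. In cured libraries HEK2 was at -0.19 on log2(TPM + 1), and it was called neither with library sizes alone (0.38) nor without both doubtful libraries (0.71).

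Of 5 factors that associate with Ccr4 outside the core, CAF16 had log2 fold changes of -1.74 in prion and -1.95 in cured libraries and DBF2, a mitotic exit kinase, of -0.90 and -0.95, all called lower. CAF120 rose by 0.96 and 1.17; its prion call was lost without prion SPO replicate 2 or both doubtful libraries (0.83 each), and on log2(TPM + 1) it had 0.24 and 0.13 and was called in neither state. BTT1 rose by 1.18 in cured libraries, from 3.74 and 4.53 to 12.2 and 7.26 CPM, and had 0.30 in prion libraries (not called). Its interaction of 0.88 was not called (edgeR adjusted p = 0.504). The 12.2 CPM belong to cured SPO replicate 1, which goes against its label, and without it BTT1 had 0.79 and was not called. Its call was also lost without either cured preSPO library (1.06 and 1.34), with library sizes alone (0.82) and on log2(TPM + 1) (0.20). In the comparisons of states, 0 genes of the 5 lists were called by edgeR in either medium.

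**Figure D5:**
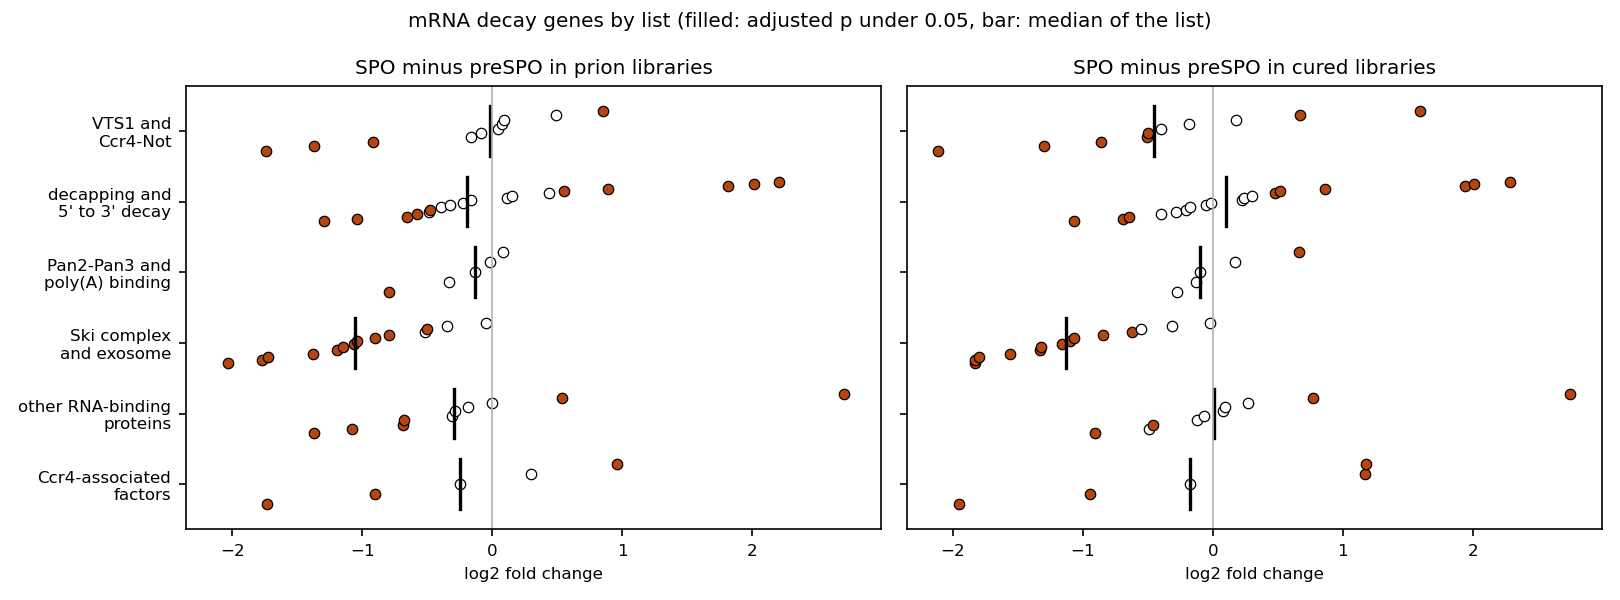
log2 fold change from preSPO to SPO medium of the 10 genes and of 5 lists of other mRNA decay genes, in prion (left) and cured libraries (right), with a point per gene, filled for an adjusted p under 0.05, and a bar at the median of each list. Ski and exosome genes lie below 0, with medians of -1.05 and -1.13, while decapping genes lie on both sides.

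YIR016W, whose CAGG hairpin is shown above, stood at 25.3, 43.3, 19.8 and 26.3 CPM in the preSPO libraries and at 167.1, 184.6, 161.9 and 164.0 CPM in the SPO libraries, in the order prion replicates 1 and 2, then cured. It rose by 2.35 on the log2 scale in prion (SE 0.262, edgeR adjusted p = 0.000160) and by 2.81 in cured libraries (SE 0.267, edgeR adjusted p = 7.40e-05). Every SPO library was above every preSPO library, as for 29.3% of all genes, while VTS1 had the opposite order, as for 29.4%. A link between the levels of VTS1 and YIR016W was not tested. YIR016W was called in both states under all 17 alternative fits. RNA decay itself was not measured.

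The 5 genes whose log2 CPM was most like that of VTS1 over the 8 libraries, among 5036 named genes with a mean of at least 10 CPM, were GTS1 (Pearson r = 0.997), MRPS28 (0.997), RSA4 (0.996), RCM1 (0.995) and ORC3 (0.995). The 8 points share the difference between media, and 1076 of the 5036 genes had an r over 0.9, so the likeness is a description of these libraries. Pearson r does not measure the size of a change. GTS1 had 121.9 to 153.8 CPM in preSPO and 92.5 to 102.0 CPM in SPO libraries, a smaller fall than that of VTS1. RSA4 went from 24.2 to 52.7 CPM to 11.1 to 14.6 CPM. Among the subunits NOT3 (0.976) and NOT5 (0.958) were most like VTS1 and CDC39 (-0.960) and CCR4 (-0.919) least like it.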

How the data were processed

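Per the submitters' processing notes, kallisto and build R64 were used; its version, index and strand setting remain not given in the sources used here. The expected counts, as deposited, are kallisto's estimated counts for 6713 targets and were rounded before testing. The TPM values were made by the authors' kallisto run. Lengths are coding lengths, as 6711 are divisible by 3. The reference, RefSeq's R64 assembly, has the same build name, and 6009 coding sequences matched the deposited lengths. Of 80 estimated counts of the 10 genes 79 were whole within 1e-06, and the other is of POP2.

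Computed here: TMM, filterByExpr (6346 genes, all 10 among them) and edgeR 4.0.16 quasi-likelihood tests in R 4.3.3 on the 4 group means, with Benjamini-Hochberg adjustment; SE is the log2 fold change over the square root of F. DESeq2 1.42.0 and limma 3.58.1 (log2 of TPM plus a pseudocount of 1) were alternatives, as were other scalings, filters, blocks and libraries left out. The fit was also run on simulated counts of independent libraries. These hold no doubtful labels or shared cultures, so they do not bear on such limits of the data. Libraries of a group were not duplicates (chi-square per degree of freedom 34.4 to 159).

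The protocol splits each culture between media, which would pair equal numbers within a state. Their deviations correlated at 0.0714 (prion) and 0.316 (cured) over genes, and MET17 goes against it for prion replicate 2 and cured replicate 1, so the pairing is not settled and the block is an alternative. The genes, lists and tests were chosen with earlier results of these data known. The text names the 10 genes, up to 4 called genes with the smallest p per list and comparison, MET17 and strain markers, YIR016W and the 5 genes most like VTS1.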

Additional observations from a re-analysis of the deposited data

How the results depend on the processing

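The falls of VTS1, NOT3 and NOT5 and the lack of calls between states held under every alternative run; other calls did not, and the cause was not tested. In prion libraries the number of the 10 genes that rose in SPO medium, 1 in the report, was 2 with the replicate number or the culture as a replicate block and with DESeq2, and 0 on log2(TPM + 1) or with library sizes unscaled, with 0 to 2 when 1 library was left out. In cured libraries the number that rose, 2 in the report, was 1 with library size scaling, 0 on log2(TPM + 1) and 1 without both SPO libraries that go against MET17, with 1 to 2 when 1 library was left out. The number that fell there, 5 in the report, was 3 without both these libraries and 3 to 5 with 1 left out. The replicate block changed no other call of the 10 genes between media or states.

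The direction turned with the scaling for genes near 0. In prion libraries, library size scaling gave -0.087 for POP2, -0.10 for CAF40 and -0.14 for CAF130, and log2(TPM + 1) gave -0.49 for POP2, -0.11 for CDC39, -0.52 for CAF40 and -0.49 for CAF130. In cured libraries library size scaling gave -0.20 for CAF40, and log2(TPM + 1) gave -0.76 for CAF40, -0.29 for CDC39, -0.32 for PAB1 and -0.19 for HEK2. Library size scaling moved the median of all genes by -0.17 and -0.37 in the 2 states. Between states, NOT5 in preSPO medium had 0.047 on log2(TPM + 1), and NOT3 in SPO medium had -0.12 on log2(TPM + 1) and -0.043 by library size. With 1 library left out, the prion response ranged from -0.082 to 0.28 for POP2, -0.43 to 0.15 for CDC36, -0.041 to 0.18 for CAF40 and -0.23 to 0.37 for CAF130. The state difference in preSPO medium ranged from -0.11 to 0.96 for VTS1, -0.35 to 0.044 for CDC39, -0.043 to 0.54 for CDC36, -0.045 to 0.20 for NOT3 and -0.28 to 0.16 for NOT5. In SPO medium it ranged from -0.27 to 0.23 for VTS1 and -0.22 to 0.042 for POP2, and the interaction of VTS1 from -1.01 to 0.063.

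Of all genes, 3380 were called between media in prion libraries, 2171 without both SPO libraries that go against MET17 and 2192 to 3434 with 1 left out, and 7 of the Ski and exosome genes fell there without both. Between states in preSPO medium 59 genes were called, with 142 under the replicate block, 441 by DESeq2, 94 on log2(TPM + 1), 10 without both libraries, 16 from the 2 groups alone and 0 to 468 with 1 library left out. In SPO medium 2 were called, with 4 by library size, 15 by DESeq2, 10 on log2(TPM + 1), 10 without both libraries and 2 to 11 with 1 left out. For the interaction 1 was called, with 2 under median-of-ratios factors, 4 by library size, 0 with the culture as a replicate block, 133 by DESeq2, 41 on log2(TPM + 1), 2 without both libraries and 0 to 44 with 1 left out. A stem of 6 base pairs left 1 of the 10 genes with a hairpin, against 8.49% of all coding sequences, and a stem of 4 gave 3 of the 10, against 36.6%. With 2 libraries a group, a lone library left in an arm was assumed to vary like the other groups.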
